A study of Homo sapiens with 18 samples.

Results

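The mitochondrial ribosomal protein genes were taken as every gene of the probe table whose symbol reads MRPL or MRPS followed by a number and at most 1 letter. The rule gave 82 probes for 78 of the 19289 genes in the table, with 29 genes (29 probes) carrying the small subunit letter S and 49 genes (53 probes) the large subunit letter L. MRPL11, MRPL18, MRPL33 and MRPL37 were each read by a pair of probes. Subunits are given by the letter in the symbol. As background, MRPS18A and MRPS30 sit in the large subunit of the assembled ribosome despite their letter, and MRPS36 has since been assigned to the 2-oxoglutarate dehydrogenase complex. The family was named by symbol alone, but MRPS27 was selected on its measured Log2 FC under siASAP1 in these libraries, so its values in that comparison are a description with no test.

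Mitochondria carry their own ribosomes, which translate the few proteins encoded by the mitochondrial genome, all of them subunits of the respiratory chain or of the ATP synthase. The RNAs of these ribosomes are encoded in the mitochondrion, while all their proteins are encoded in the nucleus, made in the cytosol and imported. The small subunit binds the mRNA and decodes it, and the large subunit joins the amino acids. MRPS27, the gene compared with the rest, encodes a small subunit protein of the pentatricopeptide repeat class, a class of RNA-binding proteins.

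The data came from triple-negative breast cancer cells of 3 lines (BT549, Hs578T, SUM149PT), lysed 72 h after transfection with 50 nM siRNA and read by TempO-Seq, an assay in which pairs of detector oligos are ligated on their target mRNA and then sequenced. In each cell line 3 libraries received siASAP1, a SMARTpool of siRNAs against ASAP1, and 3 received siCtrl, the study's negative control, which its methods describe as a mixture of kinase siRNAs. ASAP1 encodes an Arf GTPase-activating protein. All 18 libraries were thus transfected, 1 siRNA pool stood for ASAP1 depletion, and no allele or transgene was involved. The methods describe biological triplicates. Values are normalized counts (reads divided by the size factor of the library), and Log2 FC is the difference in log2(normalized count + 1). Counts are per probe, so levels are not compared between genes, and in such bulk lysates fewer cells and less RNA per cell cannot be told apart.

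The libraries held 4633629 to 12488575 reads. The cell lines carried their labelled features in part. EPCAM ran from 18650 to 36679 normalized counts in SUM149PT and from 0 to 77.8 in the other lines, CDH1 was listed at 0 in all libraries of BT549 and Hs578T, VIM (probe 18185) was at least 27346 in those lines against at most 2965 in SUM149PT, and of the basal keratins KRT17 ran from 647 to 5514 in SUM149PT against at most 1.13 in the others, KRT5 reached 64.1 in SUM149PT and was listed at 0 in the others, and KRT14 was near 0 in all 3 lines (at most 12.8). Of the other mesenchymal markers, CDH2 went against the label in BT549 (253 to 691, Hs578T 3222 to 5543, SUM149PT 1434 to 2325). ZEB1 was at most 2.53 in every line. The other VIM probe (7657) read 1.40 to 28.3 in BT549, 26.7 to 112 in Hs578T and 0 in SUM149PT. SNAI2 (probe 24257) was at least 483 in BT549 and Hs578T against at most 244 in SUM149PT, and FN1 (probe 27231) at least 6137 against at most 5346. FN1 probe 13666 was at least 4231 against at most 3116. The other SNAI2 probe (6603) overlapped between BT549 (9.44 to 125) and SUM149PT (0 to 15.8). So did FN1 probe 2459 (801 to 2052 against 111 to 923). In Hs578T these probes read 153 to 1036 and 2232 to 3489. Of the 5 probes for markers of other cell types, those for PTPRC and CD3E were at or near 0 throughout (at most 2.67). PECAM1 (probe 14079) was at 25.6 to 103 in SUM149PT, 13.9 to 46.9 in Hs578T and at most 2.10 in BT549, and the 5 probes summed to at most 108. Of the receptors that triple-negative cells lack, PGR was at most 3.38 and ESR1 (probe 2235) was listed at 0 throughout. ESR1 (probe 12234) went against the label in SUM149PT (24.3 to 191, Hs578T 2.89 to 13.1, BT549 0). ERBB2 read 26.4 to 80.3 in BT549, 17.7 to 75.9 in Hs578T and 14.6 to 138 in SUM149PT. The 6 receptor probes summed to 165 to 280 under siASAP1 in SUM149PT against 69.2 to 150 under siCtrl. ASAP1 was lower in every siASAP1 library than in every siCtrl library in BT549 (367, 730 and 783 against 944, 966 and 1107) and in Hs578T (782, 825 and 1261 against 1414, 1641 and 2697). In SUM149PT it was 184, 282 and 468 under siASAP1 and 189, 1087 and 1314 under siCtrl, the value of 189 being that of replicate 2 of siCtrl, which went against its label. The same library stood apart over the 71 members tested in all libraries together: its log2 values correlated with the mean of the other replicates at r = 0.698, against 0.823 to 0.973 in the other 17. Results that rest on it are given with and without it.

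MRPS27 was lower in siASAP1 than in siCtrl libraries of each cell line with no overlap between the groups. In BT549 the siCtrl libraries held 661, 753 and 1038 normalized counts and the siASAP1 libraries 142, 164 and 288. In Hs578T the values were 365, 391 and 401 against 88.5, 97.5 and 106. In SUM149PT they were 190, 226 and 375 against 51.3, 62.2 and 110, with 226 in the siCtrl library whose ASAP1 was low. The siASAP1 means were thus 24.2%, 25.3% and 28.3% of the siCtrl means in BT549, Hs578T and SUM149PT. The Log2 FC was −2.08, −1.98 and −1.82 in the same order and −1.82 in SUM149PT became −1.90 without replicate 2 of siCtrl. Over the 18 libraries it was −1.96 (SE 0.21), the lowest of the 71 members tested and the 18th lowest of the 10475 probes tested. Within the cell lines its rank among the members was 2nd of 72, 1st of 69 and 5th of 71. Its spread was small in Hs578T, with an SD of 0.069 (siCtrl) and 0.13 (siASAP1) on the log2 scale against medians of 0.45 and 0.38 over the members tested.

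**Figure D1:**
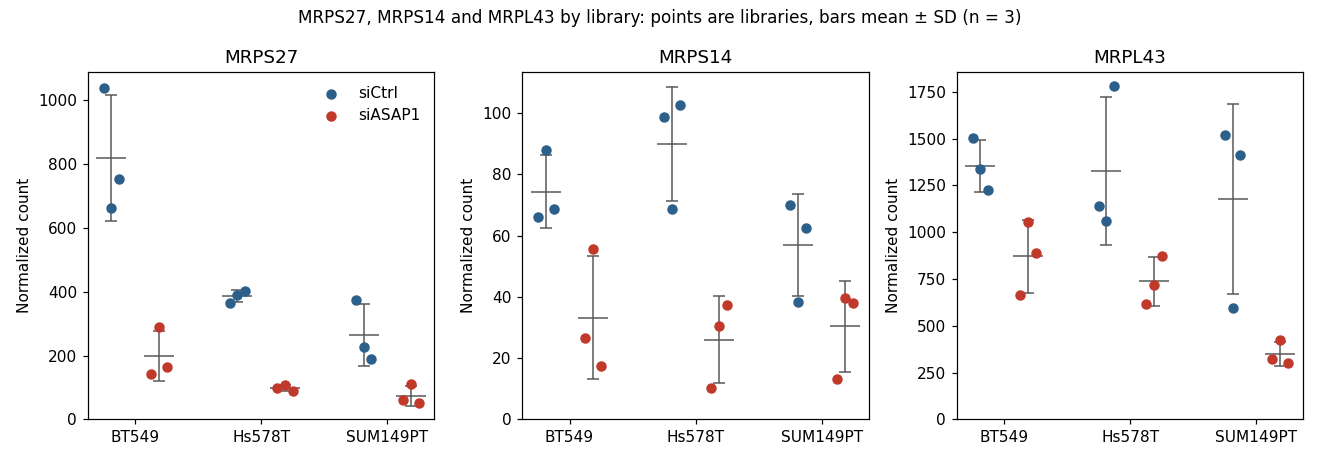
Normalized counts of MRPS27, MRPS14 and MRPL43 in each library by cell line (blue siCtrl, red siASAP1; points are libraries, bars mean ± SD, n = 3). The red points lie under the blue ones in every panel and cell line except for MRPS14 in SUM149PT, where 39.7 under siASAP1 stands above 38.3 under siCtrl.

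The gene lies on chromosome 5 at chr5:72219409-72320646 on the minus strand (GRCh38, GENCODE release 29), is protein-coding and has up to 12 exons in a coding transcript. Promoters were read from RefSeq (GRCh38.p14, 250 bases before to 50 after each gene's start), and 69 of the 78 genes had one. They were searched on both strands for CCGGAAG (core of the ETS family site, which GABPA binds), AAGATGGC (YY1) and GCGCATGC (NRF1), because the factors are known regulators of nuclear genes for mitochondria. CCGGAAG was present in 29 of the 69 member promoters (42.0%) and in 10.7% of all 27305 promoters of that length, AAGATGGC in 20 (29.0%) and 3.03%, and GCGCATGC in 6 (8.70%) and 3.27%. By subunit, CCGGAAG was in 44.4% of the small and 40.5% of the large subunit promoters and AAGATGGC in 29.6% and 28.6%. The ETS and YY1 letters can overlap in a joined run, which occurred in 4 of all promoters and in 0 of the members'. These matches describe the letters in the window and are not shown to be bound sites.

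Of the 8 genes called lower under siASAP1 in any comparison below, or described there in the case of MRPS27, MRPS27 held the YY1 letters and MRPL16, MRPL43 and MRPS21 held ETS letters, while the windows of MRPS14, MRPL18, MRPL24 and MRPL37 held none of the 3. The matches are shown with their surroundings on the gene's strand, 30 bases each, with the motif or its reverse complement in capitals. Offsets are counted from the RefSeq gene start, which differs from the GENCODE gene bounds for these 4 genes. From that start the MRPS27 match begins at base 17 of the transcribed part, and the matches of MRPL16 and MRPL43 and the first of MRPS21 begin 6, 18 and 11 bases before it.
MRPS27, chr5:72320206-72320235, minus strand: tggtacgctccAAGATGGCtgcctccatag
MRPL43, chr10:100987497-100987526, minus strand: tcgtcccggaaCCGGAAGcctcgaggttta
MRPL16, chr11:59810766-59810795, minus strand: agtgaacacaaCTTCCGGccccactgagcg
MRPS21 first, chr1:150293839-150293868, plus strand: cgtaatttccgCTTCCGGtagtgagaaccc
MRPS21 second, chr1:150293857-150293886, plus strand: tagtgagaaccCTTCCGGtgggctaggtac

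Over all 18 libraries, with cell line as a term, MRPL43 and MRPS14 were the other members that fell at an adjusted p under 0.05 (limma, Benjamini-Hochberg over 10475 probes). Counting MRPS27, 3 of 71 members tested were called lower and 0 higher, where 1.06% of all probes were called lower and 0.678% higher. At an unadjusted p under 0.05 there were 12 members, each with a negative Log2 FC, and 11 of 70 without MRPS27. The share of all probes at that limit is not given here, so the count is not read as a result about the family.

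MRPL43, a large subunit protein at chr10:100969458-100987515 (minus strand), had 1223, 1337 and 1502 normalized counts in the siCtrl libraries of BT549 against 666, 891 and 1055 under siASAP1. In Hs578T it had 1059, 1142 and 1781 against 619, 718 and 874, and in SUM149PT 594, 1413 and 1520 against 300, 323 and 423. The groups did not overlap in any cell line, also not at the low siCtrl value of 594 from replicate 2 of SUM149PT. Over the 18 libraries its Log2 FC was −1.04 (SE 0.22, limma adjusted p = 0.0158), and without that library −1.12 (adjusted p = 0.0116). It was called in each of the 18 fits that left out 1 library.

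MRPS14, a small subunit protein at chr1:175010789-175023425 (minus strand), was read at lower counts. It had 66.1, 68.7 and 88.0 in the siCtrl libraries of BT549 against 17.3, 26.7 and 55.7 under siASAP1, and 68.5, 98.7 and 102 against 10.2, 30.6 and 37.3 in Hs578T. In SUM149PT the groups overlapped, with 38.3, 62.3 and 70.1 against 13.2, 38.1 and 39.7. Its Log2 FC over the 18 libraries was −1.39 (SE 0.34, limma adjusted p = 0.0434). This call was kept in 4 of the 18 fits that left out 1 library, with adjusted p up to 0.0853. It was lost with scaling to library totals (0.0652), with no filter and with a pseudocount of 0.1. A minimum mean of 50, quantile normalization and voom weights kept it.

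The next members by p did not pass. MRPL33 (probe 27530, large subunit) had a Log2 FC of −0.87 (SE 0.24, limma adjusted p = 0.0717) and MRPS21, a small subunit protein, −1.15 (SE 0.33, adjusted p = 0.0773). In the other direction MRPL48 (0.45), MRPL27 (0.96), MRPL18 (probe 26551, 0.27), MRPS2 (0.59) and MRPS35 (0.37) had the smallest p, with adjusted p from 0.503 to 0.720.

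Within the cell lines a probe was called when its unadjusted p was under 0.05 and its Log2 FC exceeded 1 in size, the limits of the study's methods. After adjustment over all probes no member passed in any cell line in the fits of all 6 libraries. Without replicate 1 of siASAP1 in BT549, MRPL39 (−1.55) and MRPS31 (−1.43) passed as lower and MRPS35 (1.45) as higher. MRPS27 is not counted there, as it has no test in this comparison. Without replicate 2 of siCtrl in SUM149PT, MRPL43 passed (limma adjusted p = 0.0489). The shares of all probes that passed after adjustment in these reduced fits are not given here. The passes are thus not read as results about the members. In BT549, 3 of 72 members tested were called lower (MRPL16, MRPS27 and MRPS14), where 3.69% of all probes were called lower and 3.28% higher. In Hs578T, 2 of 69 were called lower (MRPS27 and MRPS14) against 1.44% lower and 1.34% higher of all probes. In SUM149PT, 6 of 71 were called lower (MRPS21, MRPS27, MRPL43, MRPL37, MRPL24 and MRPL18) against 4.29% lower and 5.27% higher. No member was called higher in these fits. With all 18 libraries in one fit, MRPL27 and MRPL49 in BT549 and MRPL11 in SUM149PT were also called, each with a positive Log2 FC. The share of all probes at an unadjusted p under 0.05 is not given here. The members at that limit within the lines all had a negative Log2 FC, which is not read as a result about the family. They were 3 in BT549, 3 in Hs578T and 7 in SUM149PT, or 2, 2 and 6 without MRPS27. These counts move with single libraries: without replicate 1 of siASAP1 in BT549, 7 members were called lower and 3 higher there, with 2169 of 9658 probes called. Without MRPS27 the count in BT549 was 2 of 71, in Hs578T 1 of 68 and in SUM149PT 5 of 70.

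MRPS14 had a Log2 FC of −1.29 in BT549 and −1.91 in Hs578T, and was the member other than MRPS27 called in more than 1 cell line. In SUM149PT it was −0.99 and was not called. Its call in Hs578T was kept in all 6 fits without 1 library, and that in BT549 in 1 of 6. MRPL16, a large subunit protein, had the lowest Log2 FC in BT549 (−3.18) at very low counts: 14.0, 18.9 and 41.2 under siCtrl and 0, 0 and 16.0 under siASAP1. With 0 reads in 2 libraries this fitted value depends on the count of 1 added before the logarithm, and its p passed in 1 of the 5 fits without 1 library in which it could be tested.

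In SUM149PT, MRPS21 had 111, 235 and 269 normalized counts under siCtrl and 21.0, 58.2 and 121 under siASAP1 (Log2 FC −1.83), and MRPL37 (probe 12369) 352, 1077 and 1216 against 193, 210 and 454 (−1.54). The other MRPL37 probe (4278), with a mean of 9.63 normalized counts over the 18 libraries, went the other way in SUM149PT (1.48) and was not called. MRPL24 had 124, 208 and 282 against 37.0, 73.6 and 113 (−1.50), and MRPL18 (probe 4265) 168, 190 and 214 against 71.0, 79.4 and 126 (−1.08). The groups of MRPL24 and MRPL18 did not overlap, and those of MRPS21 and MRPL37 overlapped through the siCtrl library with low ASAP1, which gave 111 and 352. MRPL43 (−1.65) was called in all 6 fits without 1 library, and each of MRPS21, MRPL37, MRPL24 and MRPL18 in 2 of them. Without replicate 2 of siCtrl, 16 of 70 members were called, 15 lower and 1 higher, while 2325 of 9953 probes were called in all. Just outside the limits were MRPS18C in SUM149PT (−0.95) and MRPL43 in Hs578T (−0.82), which missed the Log2 FC, and MRPS21 (−1.12) and MRPL39 (−1.05) in BT549, which missed the p. MRPL33 (probe 27530) in SUM149PT (−1.22) and, in the other direction, MRPL49 in BT549 (2.56) missed the p too.

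Counting members whose siASAP1 and siCtrl libraries did not overlap at all, 5 of 72 were lower and 4 higher in BT549, where 6.51% and 7.35% of all probes were. In Hs578T 11 of 69 were lower and 1 higher (all probes 5.78% and 6.31%). In SUM149PT 9 of 71 were lower and 1 higher (all probes 8.41% and 8.87%). The share of members that were lower was thus 6.94%, 15.9% and 12.7%. These counts and shares include MRPS27 in each cell line. It was selected on this comparison and stands there as a description with no test. MRPS27 and MRPL43 were lower without overlap in all 3 cell lines.

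**Figure D2:**
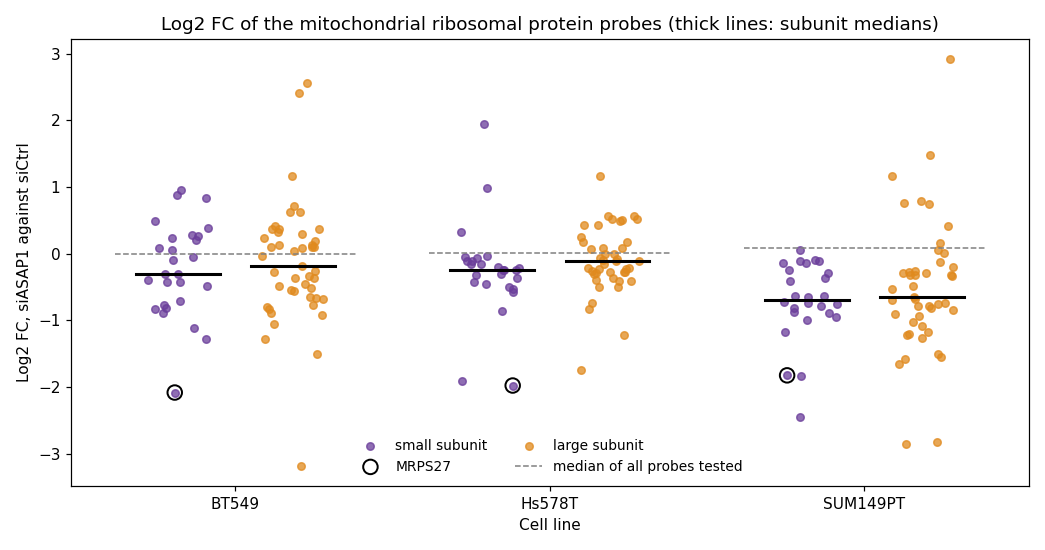
Log2 FC of siASAP1 against siCtrl for each member probe tested, by cell line and subunit (purple small, orange large; thick lines are subunit medians, dashed lines the median of all probes tested). MRPS27 is ringed at −2.08, −1.98 and −1.82, and the subunit medians lie closest to the dashed line in Hs578T and farthest from it in SUM149PT.

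The medians of the small and of the large subunit lay below that of all probes in each cell line, and the difference between the subunits was not tested. The median Log2 FC was −0.30 for the small and −0.18 for the large subunit in BT549, −0.24 and −0.11 in Hs578T, and −0.69 and −0.65 in SUM149PT, where the medians of all probes were −0.0015, 0.010 and 0.087. In BT549 they turned to 0.043 and 0.14 without replicate 1 of siCtrl. Without MRPS27 the small subunit medians were −0.20, −0.24 and −0.65. In SUM149PT 25 of 26 small and 35 of 45 large subunit probes had a negative Log2 FC, against 46.5% of all probes. In Hs578T it was 23 of 26 and 27 of 43 (all probes 49.2%), and in BT549 16 of 27 and 24 of 45 (50.1%). Without MRPS27 the small subunit counts were 24 of 25 in SUM149PT, 22 of 25 in Hs578T and 15 of 26 in BT549. Without replicate 2 of siCtrl in SUM149PT the median of all members moved from −0.65 to −0.85 and that of all probes from 0.087 to 0.11. The genes of a family are not replicates, so the medians have no test.

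The level of the family in each library, taken as the median log2 value of the 71 members minus that of all probes, was 0.87, 1.39 and 1.54 in the siCtrl libraries of SUM149PT and −0.15, 0.40 and 0.43 in its siASAP1 libraries. The groups did not overlap, and 0.87 was the siCtrl library with low ASAP1. In Hs578T the siCtrl values were 0.67, 0.96 and 1.07 and the siASAP1 values 0.59, 0.60 and 0.64, again without overlap but close. In BT549 they were 0.66, 0.87 and 1.29 against 0.58, 0.61 and 1.20 and overlapped. The summed level of 9 probes for mesenchymal markers moved with siASAP1 in BT549 (51691 to 106005 against 40999 to 49533) and in SUM149PT (10130 to 12084 against 5799 to 7158), but not in Hs578T (138124 to 178960 against 146692 to 257538). Its part in these shifts was not tested.

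**Figure D3:**
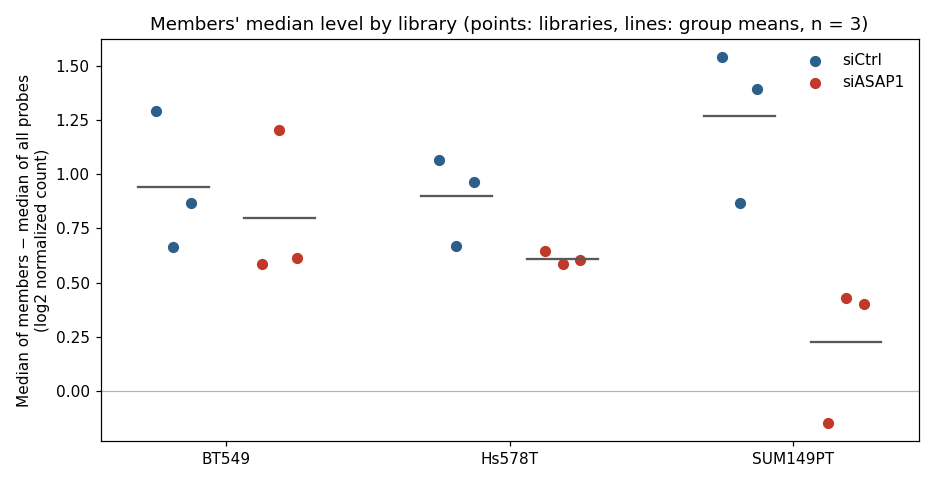
Median log2 normalized count of the 71 members minus the median of all 10475 probes, per library (blue siCtrl, red siASAP1; lines are group means, n = 3). In SUM149PT the red points (−0.15 to 0.43) lie below the blue ones (0.87 to 1.54), and in BT549 the groups overlap.

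The other gene groups of protein synthesis and respiration were read in the same fits. The cytosolic ribosomal protein genes had a median Log2 FC of −0.26, −0.27 and −0.91 in BT549, Hs578T and SUM149PT, with 2 of 80, 1 of 81 and 23 of 80 probes called lower, where 3.69%, 1.44% and 4.29% of all probes were. The nuclear genes of the respiratory chain had −0.43, −0.22 and −0.61, with 1 of 69, 0 of 75 (3 at an unadjusted p under 0.05) and 6 of 73 called lower, beside the same shares of all probes. Differences between these groups and the mitochondrial ribosomal protein genes were not tested. Over the 18 libraries, where 1.06% of all probes were called lower, 4 of 81 cytosolic and 2 of 77 respiratory chain probes were. Of these RPL23A (−0.97, limma adjusted p = 0.0110) and RPS26 (−1.43, 0.0114) of the cytosolic ribosome fell, as did ATP5L (−0.80, 0.0310) and UQCRHL (−0.94, 0.0424) of the respiratory chain group.

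Of the 5 mitoribosomal proteins with other names, none was called over the 18 libraries (1 had an unadjusted p under 0.05). DAP3, a GTP-binding small subunit protein, had a Log2 FC of 0.47 and PTCD3, a small subunit protein of the same repeat class as MRPS27, −0.34. Of the 19 mitoribosome assembly factors tested, 1 was called, beside 1.06% of all probes lower and 0.678% higher: MALSU1, which binds the large subunit during its assembly, fell by 0.72 on the log2 scale (SE 0.16, limma adjusted p = 0.0245), and MPV17L2 had −0.999 (0.244). None of the 18 translation factors was called (2 at an unadjusted p under 0.05), the lowest p being those of GFM2 (−0.97), which acts in ribosome recycling, and TSFM (−0.60), an elongation factor. None of the 10 regulators of mitochondrial genes was called (0 at an unadjusted p under 0.05), and TFAM, the packaging factor of mitochondrial DNA, had 0.60 and TFB2M, a transcription factor of the mitochondrial genome, −0.47.

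No member's change differed between cell lines at an adjusted p under 0.05 (moderated F test of limma over the 71 members among 10475 probes, where 0.00955% of all probes were called, and 3 members had an unadjusted p under 0.05). The member with the smallest p was MRPS18B, 1 of several bS18-type proteins of the mitoribosome. In BT549 its siASAP1 libraries were higher (62.2, 70.8 and 113 against 36.2, 37.1 and 49.8), and in Hs578T (15.9, 16.0 and 20.2 against 22.0, 38.0 and 39.4) and SUM149PT (19.2, 35.5 and 43.7 against 60.1, 74.7 and 79.9) they were lower, without overlap in any line. The adjusted p of this difference was 0.565.

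The pair of probes for MRPL18, a large subunit protein, read different levels of change. Probe 26551 had 628, 924 and 954 normalized counts under siASAP1 in BT549 against 470, 553 and 575 under siCtrl, and probe 4265 had 289, 290 and 341 against 183, 195 and 364. In SUM149PT probe 26551 had 310, 323 and 535 against 388, 450 and 520 (Log2 FC −0.25), while probe 4265 was called at −1.08. Over the 18 libraries the probes stood at 0.27 (SE 0.19) and −0.32 (SE 0.25), neither of them called. Which transcripts each probe reads is not given in the sources used here. For MRPL33 probe 27530 had −0.87 and probe 13134, at 10.3 to 73.6 normalized counts, −0.36 (SE 0.35).

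**Figure D4:**
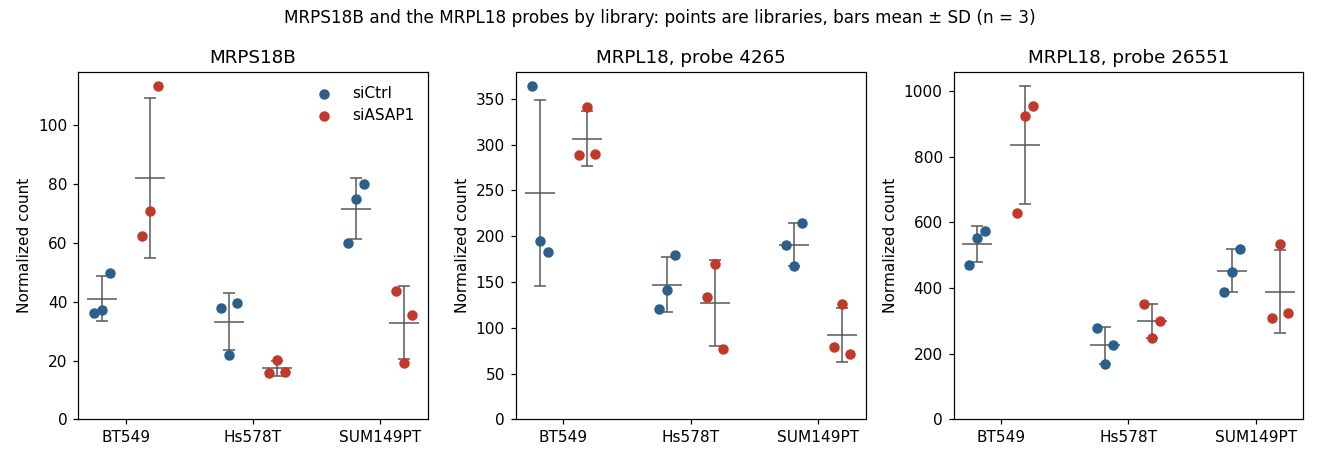
Normalized counts of MRPS18B and of the pair of MRPL18 probes in each library (blue siCtrl, red siASAP1; points are libraries, bars mean ± SD, n = 3). For MRPS18B the red points lie above the blue ones in BT549 and below them in the other cell lines.

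In the siCtrl libraries alone MRPS27 was at 661, 753 and 1038 normalized counts in BT549, 365, 391 and 401 in Hs578T and 190, 226 and 375 in SUM149PT. These values are also the denominators of the Log2 FC on which MRPS27 was selected, so they are given as a description with no test. BT549 lay above both other cell lines without overlap, with a Log2 FC of SUM149PT against BT549 of −1.66 and of BT549 against Hs578T of 1.06. SUM149PT and Hs578T overlapped (−0.61). The siASAP1 libraries gave 142 to 288 in BT549, 88.5 to 106 in Hs578T and 51.3 to 110 in SUM149PT, so that BT549 stood above the other cell lines there too and the values of Hs578T and SUM149PT overlapped.

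Between siCtrl libraries a member was called when its adjusted p was under 0.05 and its Log2 FC exceeded 1 in size. For SUM149PT against BT549, 1 of 71 members was higher and 3 were lower, where 9.4% and 8.76% of all probes were. The 3 were MRPS6, MRPS21 and MRPS27, of which MRPS27 met the limits but is a description with no test. For SUM149PT against Hs578T, 4 were higher and 3 lower (all probes 9.64% and 10.5%). For BT549 against Hs578T, 1 was higher and 0 lower (6.26% and 7.58%), and 7 members had an unadjusted p under 0.05. MRPS27 is among these 7 as a description only.

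MRPL12, a large subunit protein that also binds the mitochondrial RNA polymerase, was higher in SUM149PT (370, 809 and 830) than in BT549 (109, 173 and 188) and Hs578T (145, 170 and 203). The Log2 FC was 2.03 (SE 0.42, limma adjusted p = 0.00707) and 1.87 (SE 0.42, 0.0104), and both calls were kept in all 9 fits without 1 library. MRPL46, another large subunit protein, was higher in SUM149PT (332, 406 and 619) than in Hs578T (125, 138 and 155) by 1.65 (SE 0.37, adjusted p = 0.0101), again in all 9 fits. MRPS28, a small subunit protein, was lower in SUM149PT (599, 612 and 1040) than in Hs578T (1676, 2840 and 3960) by −1.87 (SE 0.38, adjusted p = 0.00640), also in all 9.

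The other calls were kept in fewer fits. MRPS6, a small subunit protein, was lower in SUM149PT (412, 719 and 750) than in BT549 (1351, 1479 and 2320) by −1.46 (SE 0.36, adjusted p = 0.0181) and kept its call in 7 of 9 fits. MRPL17 was lower in SUM149PT than in Hs578T by −2.37 (4 of 9 fits), and MRPL27, at 0 to 49.5 normalized counts in the siCtrl libraries, was higher by 3.16 (2 of the 7 fits in which it was tested). MRPS21 was lower in SUM149PT than in BT549 by −1.63 (adjusted p = 0.0498, 0 of 9 fits) and than in Hs578T by −1.60 (0.0497, 1 of 9). MRPL18 (probe 26551) was higher in BT549 than in Hs578T by 1.26 (adjusted p = 0.0267, 5 of 9 fits) and higher in SUM149PT than in Hs578T by 1.02 (0.0494, 1 of 9). The other MRPL18 probe (4265) had 0.69 (limma adjusted p = 0.305) and 0.38 (0.541) in these comparisons and was not called. Without replicate 2 of SUM149PT siCtrl the counts of members called were 19 for SUM149PT against BT549, 16 against Hs578T and 3 for BT549 against Hs578T, with 3351, 3103 and 2152 of 10094 probes called. MRPS27 was not left out of these counts.

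**Figure D5:**
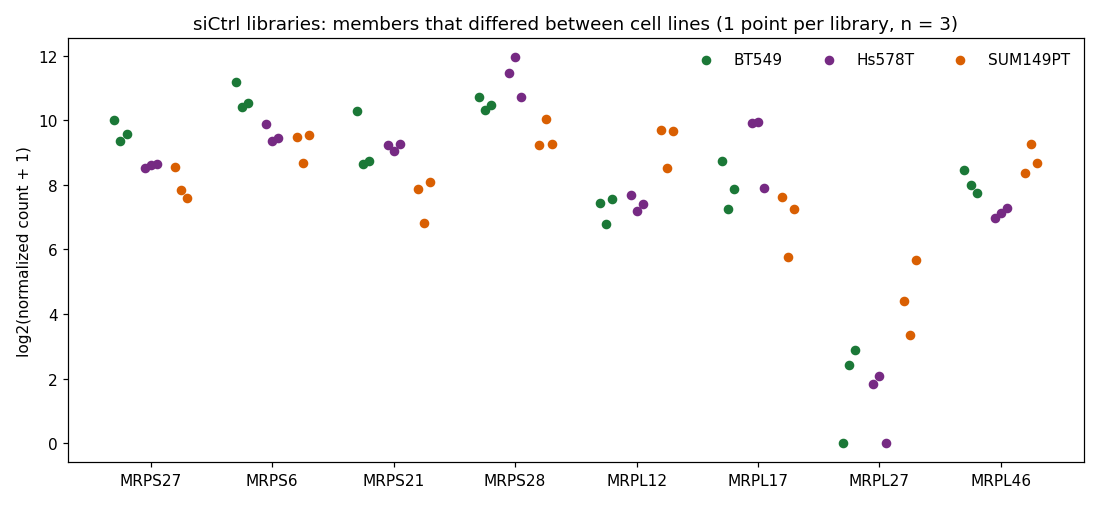
log2(normalized count + 1) in the siCtrl libraries of the cell lines for MRPS27 and 7 members called in a comparison of cell lines (green BT549, purple Hs578T, orange SUM149PT; 1 point per library, n = 3). The orange points of MRPL12 lie above the other colours, and those of MRPS27 overlap with none of the green points.

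Not every member could be read. Of the 82 probes, 71 (69 genes) had a mean of at least 10 normalized counts over the 18 libraries, and 64 reached it in every cell line. The 11 others were MRPL10, MRPL20, MRPL34, MRPL40, MRPL49, MRPL53, MRPL55, MRPS23, MRPS36 and the second probes of MRPL11 (27529) and MRPL37 (4278), with means of 0.314 to 9.63. Of these, 6 were tested in no cell line. MRPL10 was tested in Hs578T, MRPL49 in BT549, MRPL40 and MRPL53 in SUM149PT, and MRPL37 (4278) in BT549 and SUM149PT. MRPL34 had reads in 1 library and MRPS36 in 2, so that for these genes a change was not detectable at this depth. MRPL11, read only through probe 22125 at 0 to 43.7 normalized counts, had a Log2 FC of 2.92 in SUM149PT, with 0, 0 and 43.7 under siCtrl and 14.1, 31.5 and 38.4 under siASAP1. The 43.7 came from the siCtrl library with low ASAP1. Without that library the change of MRPL11 passed the test for a difference between cell lines (limma adjusted p = 0.0478). The siCtrl libraries then left in SUM149PT were at 0, so the size depends on the count of 1 added before the logarithm. In the libraries of Hs578T the probe was below the filter. The share of all probes that passed in that fit is not given here.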

How the data were processed

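TempO-Seq libraries of 18 cultures were analysed. The authors aligned detector oligo reads with Bowtie after bcl2fastq and scaled counts with DESeq2 size factors, per the labels and the study's methods. Tool versions, probe sequences and the build are not given in the sources used here. The deposited values are log2(normalized count + 1). Every value was a whole multiple of 1 read's worth in its library (100% of values, tolerance 0.01), so reads were recovered for depth and for 1 alternative.

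Groups came from the labels, and the members and lists were chosen with earlier results of these data known. Deposited log2 values were fitted with limma 3.58.1 in R 4.3.3 (lmFit, eBayes with trend) over all probes whose normalized counts averaged 10 or more in the libraries fitted: siASAP1 against siCtrl within each line, over 18 libraries with line as a term, its interaction with line (F test), and siCtrl libraries between lines. All tests were 2-sided, with Benjamini-Hochberg adjustment. The fits were tested on simulated data with a set spread between libraries. Of the changed probes 95.2% were recovered in BT549, 93.8% in Hs578T, 93.3% in SUM149PT and 96% over the 18 libraries. Of the unchanged probes the limits within the lines called 5.0%, 5.22% and 4.95%, and the limit over the 18 libraries 0.068%. Calls within a line can thus arise without a change. The authors' Wald test was not repeated. With 3 libraries a group, p-values cover the spread between cultures only.

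Named genes were MRPS27, members called in several lines, the 3 per direction with the smallest p called in each line, the 5 per direction over 18 libraries, the 4 per direction called between lines, the first 2 of each other list, and ASAP1. MRPL24 and the second MRPL18 and MRPL33 probes, MRPS18B, MRPS18C, MRPL39, MRPL11 and the members not tested over the 18 libraries were named after their values were seen. Alternatives covered scaling, filter, pseudocount, voom weights, a replicate block and leaving out each library.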

Additional observations from a re-analysis of the deposited data

Results flagged for a closer look

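MRPS18B was marked because every siASAP1 library of one cell line moved against every siASAP1 library of the others, relative to siCtrl. Its Log2 FC of 0.95 (BT549), −0.86 (Hs578T) and −1.17 (SUM149PT) each came without overlap between the groups, and none was called. The difference between cell lines had an adjusted p of 0.565 (limma, F test over 10475 probes).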

How the results depend on the processing

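Counts include MRPS27. In BT549, 3 members were called, 5 with no filter (MRPL49 as higher), 1 at a minimum mean of 50, 5 with all 18 libraries in one fit (MRPL27 and MRPL49 as higher) and 0 at an adjusted p under 0.05. Leaving out 1 library gave 1 to 10, with 10 without replicate 1 of siASAP1 and 1 without replicate 1 of siCtrl. In Hs578T, 2 were called, 0 after adjustment and 2 to 4 without 1 library (4 without replicate 2 of siCtrl). In SUM149PT, 6 were called, 2 with library totals, 13 with all 18 libraries in one fit (MRPL11 as higher), 0 after adjustment and 2 to 16 without 1 library. The 16 came without replicate 2 of siCtrl and 10 without replicate 2 of siASAP1, and each of the other 4 libraries left 2 or 3. Over the 18 libraries, 3 were called and 2 to 3 without 1 library, and between cell lines the interaction gave 0 to 1. For siCtrl levels, BT549 against Hs578T gave 1 call, 3 with library totals, 3 with only the 6 libraries and 0 to 3 without 1 library. SUM149PT against BT549 gave 4 and 2 to 19. SUM149PT against Hs578T gave 7, 4 with no filter, 4 at a minimum of 50 and 3 to 16. The cause of these moves was not tested beyond the fewer or more libraries and probes each used. Calls over all probes are given above for the main fits. They are also given within BT549 without replicate 1 of siASAP1. Without replicate 2 of siCtrl in SUM149PT they are given within that line and for siCtrl levels. For the other settings, the replicate block included, they are not given here. The member counts under those settings are thus not read as results about the family. MRPS27 kept its direction in every alternative. The subunit medians kept theirs in Hs578T and SUM149PT, and in BT549 they turned without replicate 1 of siCtrl (0.043 small, 0.14 large), as did that of the large subunit with no filter (0.0027). Library totals moved the median Log2 FC of all probes to 0.12 in Hs578T, 0.30 in SUM149PT and 0.15 over the 18 libraries, and that of the members to −0.093, −0.43 and −0.19. MRPS27 in Hs578T then had −1.86.

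A replicate block was fitted although the numbers do not pair the libraries: same-numbered deviations correlated at −0.66 to 0.42, and in Hs578T each siASAP1 library correlated best with its own number, as 1 of 3 did in BT549 and 0 of 3 in SUM149PT. With the block, 2 members were called in SUM149PT, 1 over the 18 libraries (MRPS27, with MRPL43 at an adjusted p of 0.0860 and MRPS14 at 0.125) and 2 for siCtrl of BT549 against Hs578T. The other counts stayed within 1.5 times.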
